A study of Tachysurus vachellii with 6 samples.

Results

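The miR-10, miR-99 and miR-100 family was followed in small RNA of liver-derived extracellular vesicles from a freshwater fish, the darkbarbel catfish (Pelteobagrus vachellii, also named Tachysurus vachellii). Members were the entries whose deposited name, after the species prefix, carries the number of miR-10, miR-99 or miR-100. They were 15 of 841 entries in all, with 5 of miR-10, 7 of miR-99 and 3 of miR-100. The names place 8 on the 5p arm and 4 on the 3p arm, and 3 miR-99 entries whose names carry no arm are counted as 5p because they hold the 5p seed. An entry is a distinct miRNA sequence, with repeated listings of the same sequence summed. Outside the family, 18 entries each join several sequences with identical values. The comparison was between 3 libraries of hypoxia at 4 h, with dissolved oxygen lowered to about 1.0 mg/L by nitrogen in sealed water, and 3 libraries of normoxia at 4 h, at 6.8 mg/L. Fish of both groups were bought from a fishery, measured about 11.5 cm and 15 g, and had been fasted for 48 h. The labels name no genotype, age or sex. They also do not say whether a library came from 1 fish or a pool, so the p-values cover the spread of these libraries alone, and that spread may be technical.

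A miRNA is cut from a hairpin precursor, whose arms give the 5p and 3p forms, and it recognises its targets mainly through the seed, bases 2 to 8 from its 5′ end. The miR-10 and miR-100 families are among the oldest animal miRNAs. In vertebrates miR-10 genes lie inside the Hox clusters, together with miR-196 genes, while miR-99 and miR-100 genes lie in clusters with let-7 and miR-125. In human and mouse cells miR-99 and miR-100 repress mTOR, a kinase that drives growth in response to nutrients.

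The 5p members fell into 2 seeds, and these sequences are shown because they hold nearly all of the counts of the family and are close to one another within each seed. Capitals mark the seed, T stands for U as in the deposited table, and names are printed as deposited, with suffixes that the sources used here do not explain.
dre-miR-100-5p_R-1: aACCCGTAgatccgaacttgt
gmo-miR-100b-5p_R-2_2ss14AG21TC: aACCCGTAgatccgaacttgc
dre-miR-99_R-1: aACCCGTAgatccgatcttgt
dre-miR-99_R+1: aACCCGTAgatccgatcttgtga
ccr-miR-99_R+2_1ss12CT: aACCCGTAgattcgatcttgtga
dre-miR-10c-5p: tACCCTGTagatccggatttgt
dre-miR-10b-5p_R-1: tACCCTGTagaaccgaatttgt
dre-miR-10a-5p: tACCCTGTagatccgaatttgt
ssa-miR-10d-5p: cACCCTGTagaaccgaatttgt

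Positions are counted from 1 at the 5′ end. All 7 entries of miR-99 5p and miR-100 5p carried the seed ACCCGTA, and all 4 entries of miR-10 5p carried ACCCTGT. No other entry of the table had either seed. The families were offset by a single base. Compared base by base, dre-miR-10a-5p and dre-miR-100-5p_R-1 had 13 mismatches, but after removal of the T at position 6 of miR-10a only 2 were left, T1A and T17C in the shortened numbering. From dre-miR-100-5p_R-1 to dre-miR-99_R-1 the only change was A16T. From dre-miR-100-5p_R-1 to the miR-100b entry it was T21C. Within miR-10, miR-10c and miR-10b differed by T12A and G16A, miR-10c and miR-10a by G16A, and miR-10b and miR-10d by T1C.

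Because of these near-identical sequences, the separate values depend on how reads were divided, and the sources used here do not give that rule. After summing, dre-miR-99_R-1 and dre-miR-100-5p_R-1 were not whole in 5 of 6 libraries, with remainders of 0.167 or 0.667 for the first and 0.333 for the second, and the other members were whole in all libraries.

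Library totals ranged from 2038299 to 8497215 counts, the smallest being hypoxia replicate 1, and a count of 3 corresponded to 0.353 to 1.47 CPM, the count scaled to a fixed library total. Hypoxia replicate 1 also had the fewest entries detected, 462 against 643 to 725 in the other libraries. Hepatocyte miRNAs (miR-122, miR-192, miR-194 and miR-148) summed to 271635 to 324970 CPM in hypoxia and 317592 to 327781 CPM in normoxia. Levels below are CPM on library totals scaled by TMM factors. In such bulk samples, fewer vesicles of a cell type and less RNA per vesicle cannot be told apart.

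The family took 2.43% to 3.64% of all counts of a library, and miR-100-5p made up nearly all of it. The 15 members summed to 28445 ± 5786 CPM under hypoxia against 28958 ± 691 CPM under normoxia (SD, n = 3 each). Entries with the seed ACCCGTA were 15.7 to 23.3 times as abundant as those with the seed ACCCTGT. In hypoxia that ratio was 19.7 ± 3.51 and in normoxia 20.3 ± 3.11 (SD, n = 3 each), a difference smaller than the spread within either group. These levels rest on the summing of listings, since miR-100-5p is listed 2 times. Its summed count in normoxia replicate 2 was whole and odd, at 160157, so each listing there held a fractional part of it. With each sequence at its listed value, which leaves such parts out, the members summed to 18120.2 CPM in hypoxia and 18243 CPM in normoxia. They then took 1.54% to 2.33% of counts, and the ratio of the seeds was 8.92 to 13.4.

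dre-miR-100-5p_R-1, the guide arm of miR-100, ranked 7 to 12 by abundance among all entries of a library. It measured 24294, 22208 and 32659 CPM in hypoxia replicates 1, 2 and 3, and 27434, 27342 and 25984 CPM in normoxia replicates 1, 2 and 3. The hypoxia libraries lay on both sides of the normoxia libraries, with hypoxia replicate 3 the highest and hypoxia replicate 2 the lowest of the 6. The log2 fold change of hypoxia against normoxia was -0.03 ± 0.14 (SE; 95% interval -0.34 to 0.28; edgeR, Benjamini-Hochberg adjusted p = 0.949). Fold changes outside 0.792 to 1.21 lay beyond that interval.

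dre-miR-99_R-1 has the same seed and was far rarer. It measured 480.2, 461 and 636 CPM in hypoxia replicates 1, 2 and 3 and 469, 532 and 475 CPM in normoxia. As for miR-100, hypoxia replicate 3 was the highest and hypoxia replicate 2 the lowest, and the groups overlapped. Its log2 fold change was 0.10 ± 0.15 (SE; 95% interval -0.25 to 0.44; edgeR, Benjamini-Hochberg adjusted p = 0.768).

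dre-miR-10c-5p, the second most abundant member, measured 913, 1162 and 1283 CPM in hypoxia replicates 1, 2 and 3 and 1057, 930.1 and 1199 CPM in normoxia. The groups overlapped over nearly their whole range. Its log2 fold change was 0.08 ± 0.16 (SE; 95% interval -0.27 to 0.43; edgeR, Benjamini-Hochberg adjusted p = 0.823). dre-miR-10b-5p_R-1 measured 196, 279 and 288 CPM in hypoxia and 291, 266 and 343 CPM in normoxia in the same order. Hypoxia replicate 1 was the lowest library and normoxia replicate 3 the highest, with the others between them. The log2 fold change of miR-10b was -0.23 ± 0.18 (SE; 95% interval -0.63 to 0.17; edgeR, Benjamini-Hochberg adjusted p = 0.521).

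**Figure D1:**
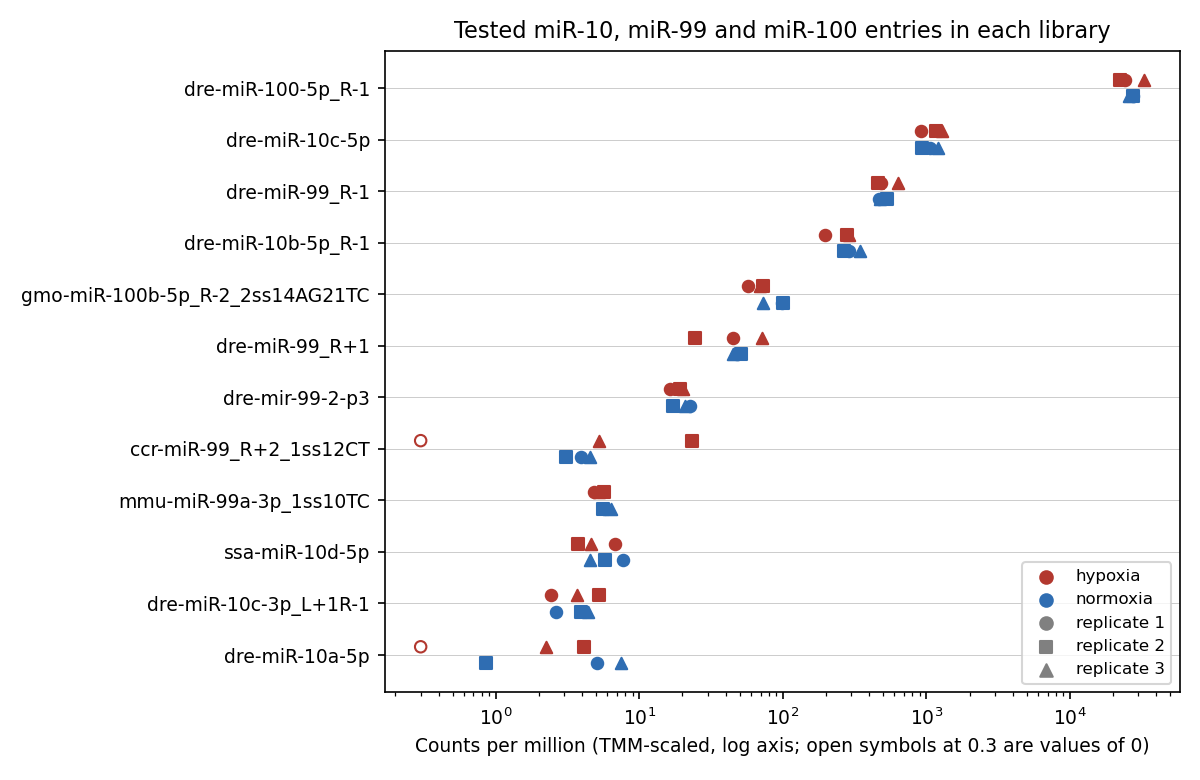
CPM (log axis) of the 12 tested members in each of the 6 libraries, red for hypoxia and blue for normoxia, with symbols for the replicate numbers and open symbols for values of 0. miR-100-5p stood at 22208 to 32659 CPM, above miR-10c-5p at 913 to 1283 CPM, and the colours overlap in every row.

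The order of the 4 leading 5p entries was the same in each library, miR-100, miR-10c, miR-99 and miR-10b, and their ranges over the 6 libraries did not overlap. Below them, the miR-100b entry (56.9 to 100.4 CPM) overlapped dre-miR-99_R+1 (24.3 to 72.2 CPM), so these did not differ in order beyond their spread. All are 21 to 23 bases long, and counts of different sequences were not calibrated against one another.

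No member passed the threshold on the adjusted p. Of the 519 entries tested, 14 (2.70%) had an edgeR Benjamini-Hochberg adjusted p under 0.05, with 8 (1.54%) higher and 6 (1.16%) lower in hypoxia, and of the 12 members tested 0 did. DESeq2 and limma-voom also called 0 of the 12, against 51 and 22 of the 519 entries. At an unadjusted edgeR p under 0.05 stood 1 of the 12 (8.33%), the miR-100b entry, against 18.5% of all entries tested. In 0 of the 12 did the hypoxia and normoxia libraries lie apart without overlap, against 26.0% of all entries tested. The median log2 fold change was -0.07 over the 12, with 8 below 0 (6 with upper-quartile factors or library totals only), and -0.04 over all entries tested. Without hypoxia replicate 1 the median over the members was 0.03 with 5 below 0, and without hypoxia replicate 3 it was -0.17 with 10 below 0. The filter on low counts left 3 members untested.

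**Figure D2:**
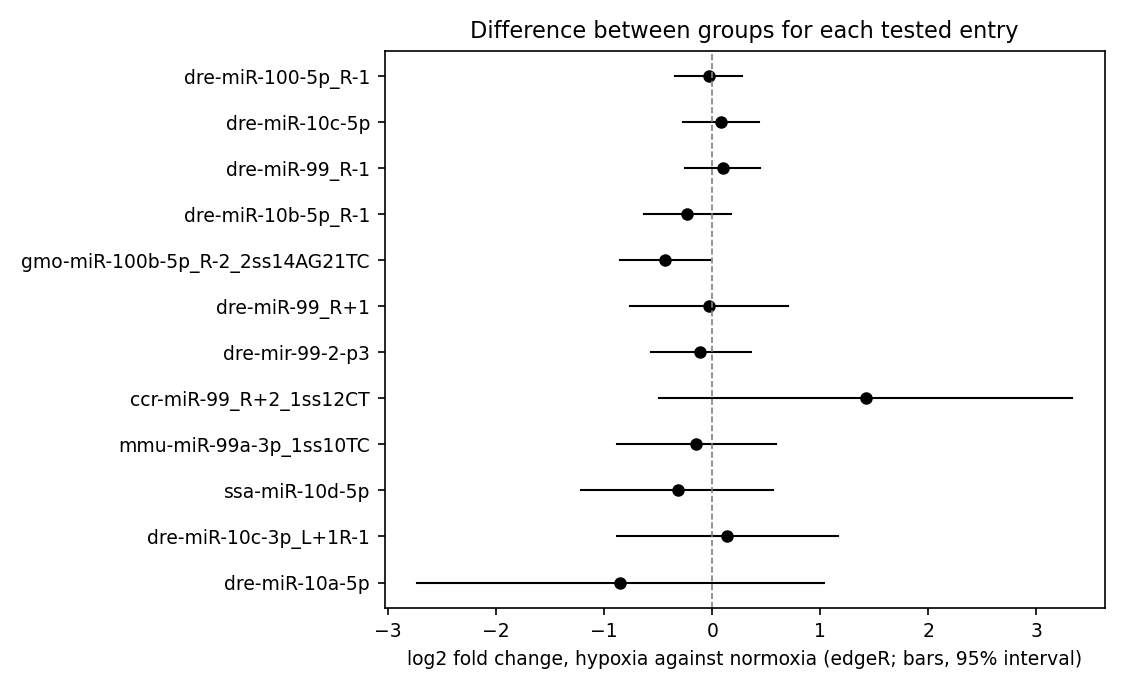
Log2 fold change of hypoxia against normoxia for the 12 tested members, ordered by abundance, with 95% intervals from the edgeR fit. The intervals widen toward the rare entries at the bottom, and those of the 4 leading entries lie within -0.63 and 0.44.

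The rarer 5p members had wider intervals, and none passed. The miR-100b entry, gmo-miR-100b-5p_R-2_2ss14AG21TC, which carries T21C against miR-100-5p, measured 56.9, 72.8 and 69.9 CPM in hypoxia replicates 1, 2 and 3 and 98.3, 100.4 and 72.5 CPM in normoxia. Hypoxia replicate 2 and normoxia replicate 3 were almost equal, and the other normoxia libraries were higher than every hypoxia library. Its log2 fold change was -0.44 ± 0.18 (SE; 95% interval -0.85 to -0.02; edgeR, Benjamini-Hochberg adjusted p = 0.242). Per 1000 counts of miR-100-5p there were 2.34, 3.28 and 2.14 counts of it in hypoxia and 3.58, 3.67 and 2.79 in normoxia, and these ratios overlapped too.

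ssa-miR-10d-5p measured 6.81, 3.73 and 4.63 CPM in hypoxia replicates 1, 2 and 3 and 7.73, 5.80 and 4.54 CPM in normoxia. The groups overlapped, and its log2 fold change was -0.32 ± 0.39 (SE; edgeR, Benjamini-Hochberg adjusted p = 0.713). dre-miR-10a-5p had 0, 30 and 14 counts in hypoxia replicates 1, 2 and 3 and 43, 5 and 41 counts in normoxia, and is described after its values were seen. The log2 fold change of miR-10a was -0.85 ± 0.84 (SE; 95% interval -2.73 to 1.03; edgeR, Benjamini-Hochberg adjusted p = 0.636). Its sequence stands between those of miR-10c and miR-10b, with 1 base different from each. The 0 of hypoxia replicate 1 allows a level of up to 1.47 CPM, above the 0.854 CPM measured in normoxia replicate 2, so that a lower level there was not detectable at this depth.

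miR-99 occurred in forms of different length and with a base change at position 12, and here hypoxia replicate 2 stood apart. dre-miR-99_R+1 holds the whole of dre-miR-99_R-1 plus the bases GA at its 3′ end. It measured 45.2, 24.3 and 72.2 CPM in hypoxia replicates 1, 2 and 3 and 48.3, 51.4 and 45.1 CPM in normoxia. Hypoxia thus held both the lowest and the highest library, and the log2 fold change was -0.03 ± 0.33 (SE; edgeR, Benjamini-Hochberg adjusted p = 0.98). ccr-miR-99_R+2_1ss12CT differs from it by C12T and has the same length of 23 bases. That variant had 0, 169 and 33 counts in hypoxia replicates 1, 2 and 3 and 33, 18 and 25 counts in normoxia.

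Of the counts of both 23-base forms in hypoxia replicate 2, 49.0% carried C12T (169 of 345, 95% Wilson interval 43.8% to 54.2%). In hypoxia replicate 3 the share was 6.79% (4.88% to 9.38%), and in hypoxia replicate 1 it was 0 of 93, which allows a share of up to 3.23%. The normoxia shares were 7.52% (5.40% to 10.4%), 5.64% (3.60% to 8.74%) and 9.16% (6.28% to 13.2%) in replicates 1, 2 and 3. Hypoxia replicate 2 was thus far above the other 5, which lay at 0% to 9.16%. With each sequence at its listed value, dre-miR-99_R+1 being listed 2 times, the share was 65.8% in hypoxia replicate 2 and at most 16.8% in the others. Those shares leave out a part of the counts of dre-miR-99_R+1, since 1 listing alone is taken. Intervals and floors cover counting error only, since no molecular identifiers are mentioned.

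The excess of the variant in hypoxia replicate 2 went with a low level of the form without it, 24.3 CPM against 45.1 to 72.2 CPM in the other libraries. Both 23-base forms together made up 9.38% of the counts of dre-miR-99_R-1 and the 23-base forms in that library (95% Wilson interval 8.48% to 10.4%), within the 8.60% to 10.9% of the other libraries. At listed values it was 7.16%, against 4.49% to 6.11% in the others. Listed values leave out a part of the counts of dre-miR-99_R+1, while the variant, listed 1 time, is taken in full. The log2 fold change of the variant was 1.42 ± 0.85 with all libraries and -0.28 ± 0.85 without hypoxia replicate 2 (edgeR, Benjamini-Hochberg adjusted p = 0.405 and 0.87). With no filter on low counts it was 1.40 and passed (edgeR, Benjamini-Hochberg adjusted p = 0.0212). That setting called 1 of the 15 members, and 59 of at most 841 entries over all.

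**Figure D3:**
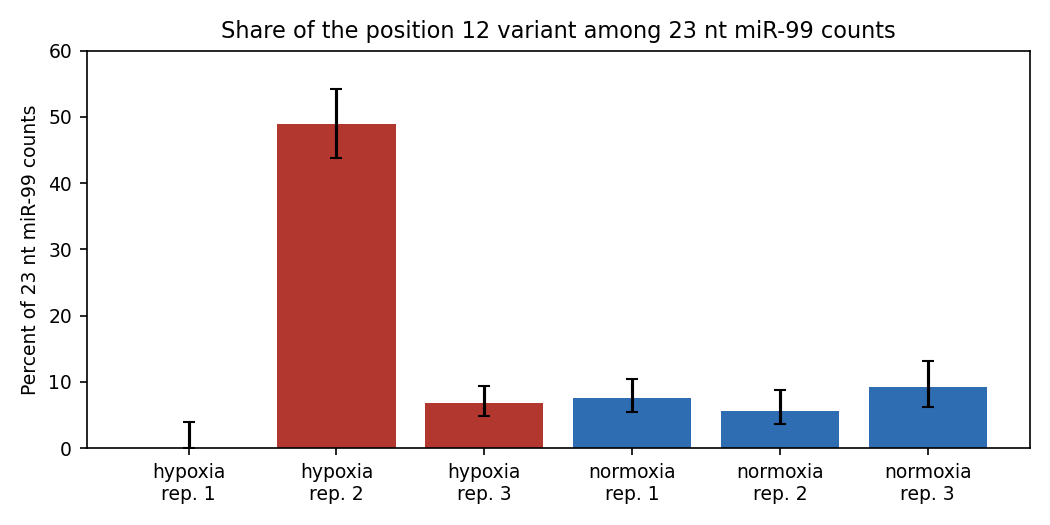
Share of the 23-base miR-99 counts that carry the change at position 12, in percent, for each library, with 95% Wilson intervals. Hypoxia replicate 2 reaches 49.0%, and the other 5 libraries stay between 0% and 9.16%.

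The 3p members, which are the opposite strands of the same hairpins and are usually the discarded ones, were scarce throughout. In miR-99 they are shown because the deposited table holds forms with the same seed.
dre-mir-99-2-p3: cAAGCTCGattctgtgggtct
mmu-miR-99a-3p_1ss10TC: cAAGCTCGtctctatgggtct

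From the first to the second the changes were A9T, T10C and G14A. dre-mir-99-2-p3 measured 16.5, 19.2 and 20.1 CPM in hypoxia replicates 1, 2 and 3 and 22.6, 17.1 and 20.9 CPM in normoxia. Its groups overlapped, with a log2 change of -0.11 ± 0.21 (SE; edgeR, Benjamini-Hochberg adjusted p = 0.818). The second form stayed between 4.86 and 6.36 CPM. Per 100 counts of the 5p arm, the 3p arm of miR-99 had 3.55 to 5.42 counts. dre-miR-10c-3p_L+1R-1 lay at 2.43, 5.25 and 3.67 CPM in hypoxia and 2.62, 3.93 and 4.36 CPM in normoxia, with a log2 change of 0.14 ± 0.46 (SE; edgeR, Benjamini-Hochberg adjusted p = 0.905), and miR-10 had 1.92 to 3.62 counts of its 3p arm per 1000 of its 5p arm. miR-100 was the most lopsided. dre-miR-100-3p, which was not tested, had 0, 12 and 7 counts in hypoxia and 9, 6 and 7 counts in normoxia. That was at most 7.44 counts per 100000 of the 5p arm. These arm ratios rest on the summing of listings. Some 5p entries, those of miR-100 among them, are listed 2 times and the 3p entries 1 time. Listed values would therefore give higher ratios.

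The other untested members were the rarest and are named after their values were seen. ami-miR-99b-5p_R+2_2ss16AT21CT, which extends dre-miR-99_R+1 by an A, had 3 counts in hypoxia replicate 3, 4 in normoxia replicate 1 and 0 elsewhere. cpo-miR-99b-5p had 5 counts in normoxia replicate 1 and 0 in the other 5 libraries. At this depth neither group could be told from the other for these entries.

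Ratios between members within a library do not depend on the scaling. Among the 6 pairs of the 4 members above 100 CPM, hypoxia and normoxia did not overlap in 2 pairs (33.3%), against 31.1% of all 14878 pairs of entries above that level. A share so near the background is not a result about this family, and the values are given as a description. Per 100 counts of miR-10c-5p there were 21.5, 24.0 and 22.4 counts of miR-10b-5p in hypoxia replicates 1, 2 and 3 and 27.5, 28.6 and 28.6 in normoxia, so that every hypoxia library was lower. With each sequence at its listed value, miR-10b being listed 2 times, the group means of this ratio were 11.3 and 14.1, every library moving by the same factor. The difference between the log2 fold changes of miR-10b and miR-10c was -0.31, and -0.27 with offsets for the GC content and length of the entries. The GC content of miR-10b was 40.9% and that of miR-10c was 45.5%. Per 100 counts of miR-100-5p there were 1.98, 2.07 and 1.95 counts of dre-miR-99_R-1 in hypoxia and 1.71, 1.94 and 1.83 in normoxia. Here hypoxia replicate 3 and normoxia replicate 2 almost touched. At listed values this ratio was 3.90 to 4.15 in hypoxia and 3.42 to 3.89 in normoxia. These ratios were singled out after their values were seen, and 3 libraries against 3 cannot give an exact two-sided permutation p below 0.1.

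**Figure D4:**
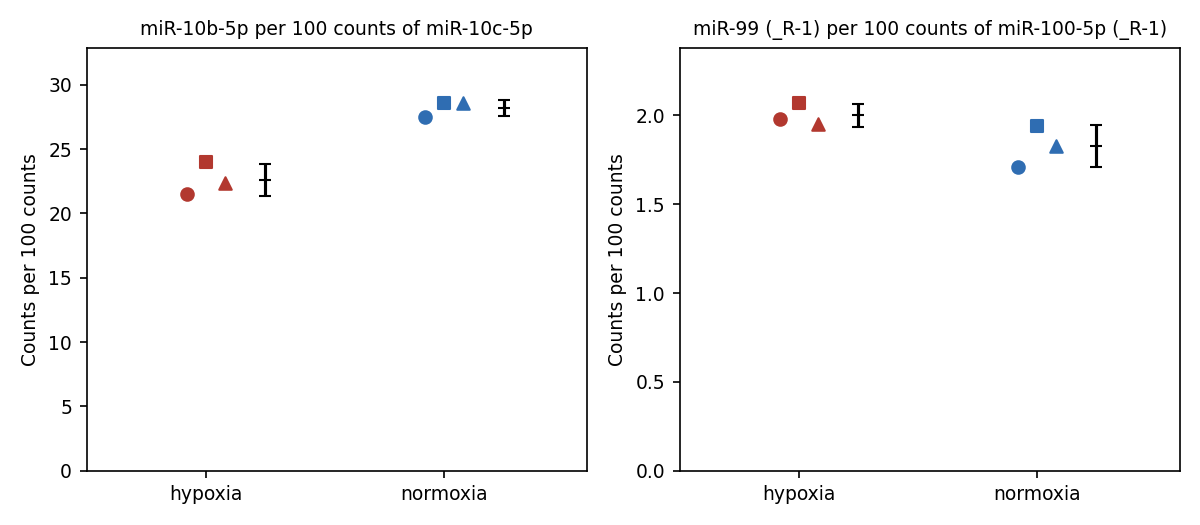
Counts of miR-10b-5p per 100 counts of miR-10c-5p (left) and of miR-99 per 100 counts of miR-100-5p (right) in each library, with mean and SD of each group in black. On the left hypoxia lies at 21.5 to 24.0 and normoxia at 27.5 to 28.6, while on the right the groups come within 1.95 and 1.94.

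Markers of other cell types were measured in the same libraries, and their part in these ratios was not tested. Erythrocyte miRNAs (miR-451, miR-144 and miR-486), with 2 of 7 tested entries called higher, summed to 7201 to 9172 CPM in hypoxia and 4842 to 5916 CPM in normoxia. The endothelial miR-126 entries, with 0 of 4 called, summed to 15765 to 17730 CPM and 11827 to 13514 CPM. Epithelial sums were lower in hypoxia, at 2548 to 2956 CPM against 3016 to 3371 CPM, with 0 of 12 called and no entry of miR-141. Pancreas miRNAs lay at 1121 to 1398 CPM and 1399 to 1652 CPM, almost touching, with 0 of 4 called. Over all entries tested 1.54% were called higher, and in 26.0% the groups did not overlap. Entries within these lists went both ways. Log2 fold changes lay below 0 for 2 of 7 erythrocyte and 1 of 4 endothelial entries. They lay above 0 for 4 of 12 epithelial and 1 of 4 pancreas entries. Of the 13 hepatocyte entries tested 0 were called, and 11 lay below 0, against 287 of 519 over all entries. The lowest hepatocyte sum, 271635 CPM, was that of hypoxia replicate 3, and its relation to the members was not tested. Mesenchymal and smooth muscle miRNAs overlapped between groups, at 83666 to 85793 CPM and 82040 to 86879 CPM. So did the leukocyte, muscle and neural lists.

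Across libraries miR-99 and miR-100 moved together more closely than either did with miR-10. Likeness was the root mean square difference over the 6 libraries between log2(CPM + 1) profiles, each centred on its own mean, so that smaller values mean more alike. It was 0.089 between dre-miR-99_R-1 and dre-miR-100-5p_R-1, which may share divided reads, and 0.167 between miR-10b and miR-10c. Between dre-miR-99_R-1 and miR-10c it was 0.2 and between dre-miR-99_R-1 and miR-10b 0.282. Between miR-100 and miR-10c it was 0.205 and between miR-100 and miR-10b 0.254, where the median over the 169 entries outside the family with means of at least 100 CPM was also 0.254.

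Among those 169 entries the nearest to miR-100-5p were oni-miR-221_R-1 (0.071), dre-miR-150_R+1 (0.075) and mmu-mir-6240-p5_1ss12TG (0.111). The nearest to dre-miR-99_R-1 were dre-miR-150_R+1 (0.063), mmu-mir-6240-p5_1ss12TG (0.085) and ssa-miR-192a-3p_1ss11AC (0.085). Thus dre-miR-150_R+1 was nearer to both miR-99 and miR-100 than these were to each other (0.089). Their closeness was therefore not particular to the pair. For miR-10c-5p they were mmu-mir-6240-p5_1ss12TG (0.127), dre-miR-214_R+1 (0.133) and dre-miR-139-5p_R+5 (0.134). All 6 points of a profile come from the same libraries and scaling, so this is a description of these libraries.

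**Figure D5:**
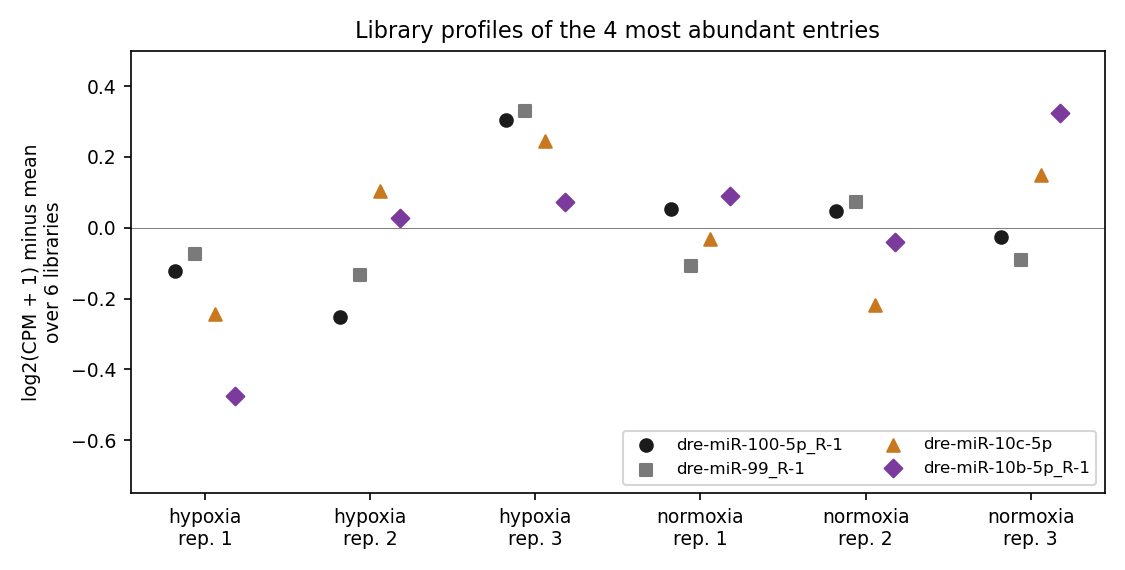
Deviation of log2(CPM + 1) from its mean over the 6 libraries for the 4 most abundant members. In hypoxia replicate 2 miR-100 and miR-99 lie below 0 and both miR-10 entries above it, while hypoxia replicate 3 lies above 0 for all 4.

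Entries of the partner families let-7 and miR-125, taken by number, were measured by the same fit. Genomic positions in this fish were not available, so which of these entries share a cluster with the members is not known. Of 27 tested let-7 entries 0 passed, and their median log2 fold change was 0.10. An unadjusted edgeR p under 0.05 was found for 4 of the 27, against 18.5% of all entries tested. All 33 let-7 entries summed to 138391 to 150921 CPM in hypoxia and 128098 to 134813 CPM in normoxia, without overlap. Among single entries tested, the groups did not overlap in 26.0%. The sums of the 9 miR-125 entries overlapped, at 1123 to 1476 CPM and 1245 to 1455 CPM. For oni-let-7e the level was 88319 ± 2749 CPM under hypoxia against 79043 ± 822 CPM under normoxia (SD, n = 3 each), with a log2 change of 0.16 ± 0.08 (SE; edgeR, Benjamini-Hochberg adjusted p = 0.293), and oni-let-7a had one of 0.11 ± 0.14. DESeq2 called 2 let-7 entries, among 51 called over all entries. The edgeR fit without hypoxia replicate 2 called 3, among 52 over all entries. Of 7 tested miR-125 entries 0 passed by edgeR, 0 of them also at an unadjusted p under 0.05 and 0 by DESeq2 or limma-voom. dre-miR-125b-5p had a log2 fold change of 0.03 ± 0.15 and dre-miR-125c-5p one of -0.01 ± 0.15. miR-196, the Hox cluster partner of miR-10, had 0 entries in the table.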

How the data were processed

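Vesicle small RNA of 6 libraries was sequenced and reads were truncated to 50 bp, per the labels' protocols. The authors deposited 1 table of estimated counts, unscaled per its header, with 1088 rows and 874 distinct sequences. The sources used here do not name the aligner, caller, genome build or rule for dividing reads. Listings of a sequence were summed as its first listing times the number of listings, which assumes that all hold the same value. Sequences with identical values, whose names agree in species, number and letter, were joined in 18 sets, none of them a member. In the 841 entries, 89.0% of nonzero values were then whole within 1e-06. Values were rounded, since the fixed design assumed whole counts.

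Entries passing filterByExpr were scaled with TMM. Hypoxia was set against normoxia by the quasi-likelihood F test of edgeR 4.0.16 without a block, adjusted by Benjamini-Hochberg over all 519. SE was derived from F and the log2 fold change. Alternatives used DESeq2 1.42.0, limma 3.58.1 (voom), other scalings, listings and filters, offsets, a block, and libraries left out. In simulated counts of hypoxia against normoxia, 311 of 505 entries were unchanged. Changes of 0.5, 1 and 2 on the log2 scale were set in 48, 48 and 98 entries. The test called 29.2%, 77.1% and 95.9% of these, and 0.6% of unchanged ones. In the data 2.70% of entries were called, and a larger changed share raises the rate of calls after adjustment. The simulated rates may therefore overstate what the test could find here.

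Values in every library are given for the 4 most abundant entries of each number and for called members. Others are given by range and counts, or named for sequence differences. Members, marker lists and partner lists were chosen with earlier results of these data known.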

Additional observations from a re-analysis of the deposited data

How the results depend on the processing

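No member was called in any alternative except with no filter on low counts. That called 1 of the 15, the C12T variant of miR-99, and 59 of at most 841 entries over all. With 1 library left out at a time the count stayed at 0. Over all entries 14 were called, and 5 with library totals only, 59 with no filter, 3 with sequences kept apart, 3 with GC and length offsets, 51 with DESeq2, 22 with limma-voom and 0 to 52 with 1 library left out. Of let-7 entries 2 were called with no filter, 2 with DESeq2 and 0 to 3 with 1 library left out. Alternatives for these counts over other entries, for the share of miR-100-5p and for the ratios between members were chosen after seeing the data.

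No sign of pairing by replicate number was seen: deviations of same-numbered libraries from their group means correlated at -0.129, -0.055 and -0.046 across entries. Libraries of different numbers correlated at -0.058 to 0.117, and such small values cannot show whether samples were paired. With the replicate number as a block 7 entries were called, 0 of them members.

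Directions near 0 turned. The log2 fold change of miR-100-5p was 0.03 with upper-quartile factors and 0.02 with library totals, and that of dre-miR-99_R+1 was 0.03, 0.03 and, with offsets, 0.08. With 1 library left out the log2 fold change ranged from -0.19 to 0.10 for miR-100-5p, -0.49 to 0.32 for dre-miR-99_R+1, -0.04 to 0.25 for miR-10c-5p, -0.17 to 0.36 for miR-10c-3p, -0.05 to 0.21 for dre-miR-99_R-1, -0.24 to 0.03 for dre-mir-99-2-p3 and -0.28 to 1.93 for the C12T variant. The miR-10b, miR-10d and miR-100b entries stayed below 0 in all alternatives run, though the first 2 came near 0. With 1 library left out they ranged from -0.34 to -0.03, -0.49 to -0.04 and -0.55 to -0.29, in that order. The tested entries miR-10a and mmu-miR-99a-3p_1ss10TC were not followed singly in the alternatives. Of the 12 members 5 to 10 lay below 0 with 1 library left out, with medians of -0.17 to 0.03. The cause of these turns was not tested.

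At listed values, without summing, the members summed to 18120.2 CPM in hypoxia and 18243 CPM in normoxia, miR-100-5p made up 87.5% and 88.1% of them, and miR-10b stood at 11.3 and 14.1 per 100 of miR-10c, since sequences listed 2 times are then taken once. With 1 library left out the summed level ranged from 25150.3 to 30726 CPM in hypoxia and 28193 to 29270.2 CPM in normoxia. Depth limits the members under 10 CPM.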
